A study of Mus musculus with 14 samples.

Results

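Ketone bodies are made, used and carried across membranes by a small group of proteins, and 8 of their genes were examined in the ileum: Bdh1, Bdh2, Acat1, Oxct1, Aacs, Slc16a1, Slc16a6 and Slc16a7. They were picked by gene symbol and not by a cut on their levels, though earlier results of these data were known. They are 8 of the 54532 genes in the deposited count table. All 8 had enough reads to be tested, among 13846 tested genes. The ileum mucosa of 7 wild-type (WT) and 7 knockout (IKO) male mice was scraped off and sequenced, with 1 library per mouse. IKO mice lack the nuclear receptor corepressor NCoR1 in intestinal epithelial cells, because Cre recombinase driven by the villin promoter deletes a floxed part of Ncor1 there. WT mice were littermates with the floxed gene and no Cre. Mice of both genotypes were 7 to 8 weeks old when they were put on a high-fat diet (HFD) with 60% of its energy from fat, and they ate it for 15 weeks. The comparison asks how the loss of NCoR1 in the epithelium changed the ileal transcriptome on this diet.

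Ketone bodies, mainly β-hydroxybutyrate and acetoacetate, are built in mitochondria from acetyl-CoA, by way of acetoacetyl-CoA, when fatty acids are oxidized in excess of what the tricarboxylic acid cycle takes up. The liver is the main source, but intestinal epithelium can also make them, most of all when dietary fat is high or PPARα is active. Other tissues turn them back into acetoacetyl-CoA, or activate acetoacetate in the cytosol for the synthesis of cholesterol and fatty acids. Because ketone bodies are small acids, they cross membranes on proton-coupled monocarboxylate transporters, which also carry lactate, pyruvate and butyrate.

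Between 14749669 and 21557468 reads per mouse were counted on genes. The share of counts on mitochondrially encoded genes was 50.3% for IKO 4, 23.9% for WT 3 and 3.49% to 10.3% for the other 12 mice. Ncor1 (chr11:62316426-62458541) fell from 134.4 ± 31.2 to 50.4 ± 10.9 CPM (counts scaled to library size with TMM factors, SD, n = 7 per genotype), with no overlap between genotypes (log2 fold change -1.41, SE 0.18, edgeR adjusted p = 0.00051). The labels call the samples intestinal epithelial cells, and the summed level of 7 epithelial markers was 15946 to 49517 CPM in WT and 35933 to 45968 CPM in IKO mice. Markers of pancreas and hepatocytes were near 0, except in IKO 4, where 3 pancreas markers summed to 6.11 CPM against at most 0.669 CPM in the other mice. WT 4 stood apart in 6 smooth muscle markers, which summed to 10827 CPM against a WT median of 22.5 CPM. IKO 1 and IKO 2 had 794 and 391 CPM of them, against an IKO median of 10.4 CPM. In whole mucosa, fewer cells of a type and less RNA per cell cannot be told apart.

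None of the 8 genes passed the edgeR quasi-likelihood test at an adjusted p under 0.05, against 8.67% of all genes tested (4.38% higher and 4.28% lower in IKO mice). With p left unadjusted and under 0.05, 3 were higher (Bdh1, Oxct1 and Aacs) and 2 lower (Slc16a6 and Slc16a7), or 5 of 8 against 30.4% of all genes (11.9% higher and 18.5% lower). DESeq2 and limma-voom with sample quality weights each called 4 genes, the same in both: Bdh1, Oxct1 and Aacs higher and Slc16a6 lower, where they called 17.9% and 13.6% of all genes. The values of the 2 genotypes overlapped for each of the 8 genes, while 3.10% of all genes tested had no overlap. The median log2 fold change of the 8 genes was 0.35, and that of all genes was -0.09. Of the 8 genes, 5 had a fold change above 0, as did 43.5% of all genes. Among all calls 50.6% were higher in IKO mice, and 68.3% were so with limma on log2(FPKM + 1).

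**Figure D1:**
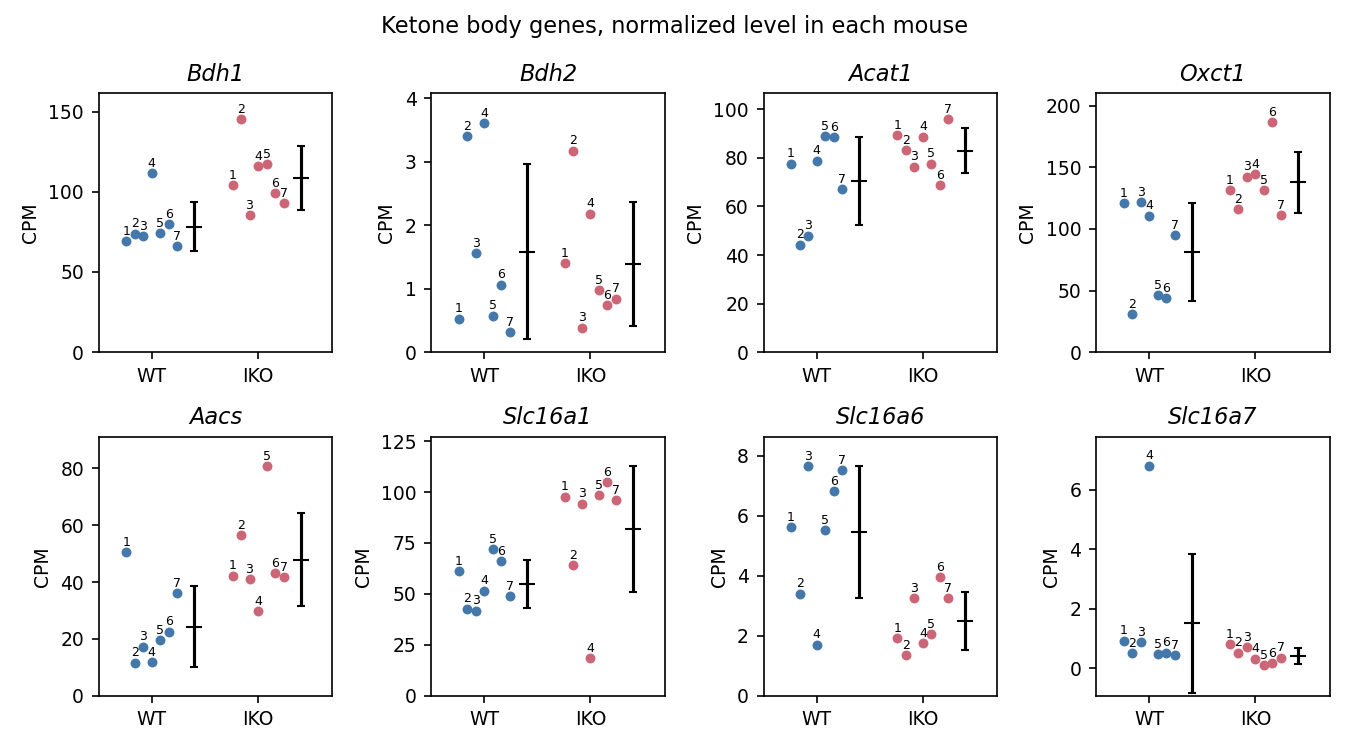
Normalized level (CPM, linear axis) of each ketone body gene in each mouse, with WT in blue, IKO in red and the mouse number above each point. The black mark is the mean with a bar of 1 SD (n = 7). Bdh1, Oxct1 and Aacs sit higher in most IKO mice, Slc16a6 sits lower, single mice stand apart for Slc16a1 (IKO 4) and Slc16a7 (WT 4), and the genotypes overlap in every panel.

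The start regions of Aacs, Oxct1 and Slc16a1 are shown first, since these had the largest fold changes above 0 among the 8 genes. RefSeq promoter windows (GRCm38.p6) matched 5 of the 8 genes in 6 windows, with 2 windows for Bdh1 and 1 each for Bdh2, Oxct1, Aacs and Slc16a1. Acat1, Slc16a6 and Slc16a7 were not matched. The 250 bases before the transcript start in RefSeq of Aacs (chr5:125475623-125475872), Oxct1 (chr15:4026178-4026427) and Slc16a1 (chr3:104638414-104638663) are printed 5′ to 3′ on the plus strand, which is the coding strand of all 3, and capitals mark motif matches. The RefSeq starts differ from the gene starts of the count table, so 59 bases of the Aacs window and 45 of the Oxct1 window lie inside the genes as placed there.
Aacs: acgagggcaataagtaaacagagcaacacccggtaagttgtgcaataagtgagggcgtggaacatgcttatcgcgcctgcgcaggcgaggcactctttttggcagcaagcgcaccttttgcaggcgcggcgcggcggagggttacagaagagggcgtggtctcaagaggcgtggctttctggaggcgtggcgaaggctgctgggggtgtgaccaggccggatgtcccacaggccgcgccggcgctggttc
Oxct1: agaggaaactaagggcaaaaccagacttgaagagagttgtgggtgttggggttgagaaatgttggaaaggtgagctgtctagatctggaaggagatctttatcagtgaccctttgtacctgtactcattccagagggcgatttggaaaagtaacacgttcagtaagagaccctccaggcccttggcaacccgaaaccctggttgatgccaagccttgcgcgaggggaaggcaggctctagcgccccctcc
Slc16a1: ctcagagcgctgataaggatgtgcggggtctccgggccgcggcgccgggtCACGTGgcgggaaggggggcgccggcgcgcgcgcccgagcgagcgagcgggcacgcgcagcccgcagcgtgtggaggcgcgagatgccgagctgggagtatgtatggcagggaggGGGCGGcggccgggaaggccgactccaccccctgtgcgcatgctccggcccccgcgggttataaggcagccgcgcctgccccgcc
Windows of 300 bases were searched on both strands for AGGTCA, the half-site that nuclear receptors bind, for 2 copies of AGGTCA in a row with 1 base N between them, the direct repeat that PPAR with RXR binds, for CACGTG, the E-box, and for GGGCGG, the GC-box. The direct repeat contains the half-site. Neither AGGTCA nor the repeat was found in the 6 windows, and among all 32851 promoter windows 16.3% held the half-site and 0.0396% the repeat. CACGTG was found in the Slc16a1 window, at position -200 from the RefSeq start, as in 7.15% of all windows. GGGCGG was found in the windows of Slc16a1, at position -85, and of Bdh1, as in 35.7% of all windows.

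The synthesis genes Acat1 and Bdh1 were well expressed. Bdh2, placed beside them for its name, was near the limit of detection. Acat1 (ENSMUSG00000032047, chr9:53580522-53610382) encodes the mitochondrial acetoacetyl-CoA thiolase, which joins or splits acetyl groups and so serves both the making and the use of ketone bodies. Its level was 44.3 to 89.0 CPM in WT mice, with a median of 77.7, and 68.7 to 96.1 CPM in IKO mice, with a median of 83.3. WT 2 and WT 3 were low, at 44.3 and 48.0 CPM, and the other 5 WT mice lay in or next to the range of the IKO mice. The means were 70.5 ± 18.2 and 82.9 ± 9.29 CPM (SD, n = 7), and the difference was smaller than the spread (log2 fold change 0.23, SE 0.17, adjusted p = 0.37). The interval of the ratio of IKO to WT ran from 0.913 to 1.51.

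Bdh1 (ENSMUSG00000046598, chr16:31422280-31458901) encodes the mitochondrial enzyme that interconverts acetoacetate and β-hydroxybutyrate, the last step of synthesis and the first of use. WT mice had 66.2 to 111.8 CPM with a median of 73.9, and IKO mice 85.6 to 145.3 CPM with a median of 104.0. All 7 IKO mice were above the WT median and 3 were above the highest WT mouse. That mouse was WT 4, and the other 6 WT mice had at most 80.1 CPM, below every IKO mouse. The mean was 78.3 ± 15.4 CPM in WT and 108.6 ± 19.8 CPM in IKO mice (SD, n = 7), a ratio of 1.39 (log2 fold change 0.47, SE 0.16, adjusted p = 0.067 by edgeR). Without WT 4 the log2 fold change was 0.58 and the adjusted p was 0.035, where all alternatives gave 0.019 to 0.136. WT 4 also had the highest sum of smooth muscle markers. IKO 1 and IKO 2 had 794 and 391 CPM of these markers, with Bdh1 at 104.0 and 145.3 CPM. The part of smooth muscle in the Bdh1 levels was not tested.

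Bdh2 (ENSMUSG00000028167, chr3:135281221-135304426) encodes a cytosolic dehydrogenase of the short-chain family that was named for its likeness to Bdh1. It had only 207 reads over the 7 WT and 151 over the 7 IKO mice, so counting error is large in each mouse. Levels ran from 0.318 to 3.60 CPM in WT (median 1.065) and from 0.387 to 3.17 CPM in IKO mice (median 0.978). High values came from both genotypes, from WT 2 and WT 4 and from IKO 2 and IKO 4. The log2 fold change was -0.19 (SE 0.58, adjusted p = 0.85), and the interval of the ratio, 0.375 to 2.06, leaves room for a change in either direction. Its sign turned in 5 of the 23 alternatives that covered it.

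Genes of ketone body use had the largest estimates above 0. Oxct1 (ENSMUSG00000022186, chr15:4026383-4155344) encodes succinyl-CoA:3-ketoacid CoA transferase, the mitochondrial enzyme that commits acetoacetate to oxidation and which the liver largely lacks. WT levels were 30.7 to 122.0 CPM with a median of 95.1, and IKO levels 111.0 to 186.4 CPM with a median of 131.4. The WT mice fell apart into 3 with low values (WT 2, WT 5 and WT 6, at 30.7, 46.0 and 43.7 CPM) and 4 with 95.1 to 122.0 CPM. No IKO mouse was in the low range, and 5 of 7 were above the highest WT mouse. Mean levels were 81.3 ± 39.8 and 137.6 ± 24.8 CPM (SD, n = 7), a ratio of 1.69 (log2 fold change 0.76, SE 0.29, adjusted p = 0.101, from 0.015 to 0.159 over the alternatives).

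The same 3 WT mice had the lowest WT sums of the fibroblast, endothelial, smooth muscle and ileal enterocyte marker lists. Their sums of the 7 epithelial markers, 49517, 38349 and 34960 CPM, were the highest among WT mice, where the others had at most 32236 CPM. For 4 fibroblast markers they had 4.69, 3.29 and 7.36 CPM against 22.7 to 240.5 CPM in the other 4 WT mice, and for 2 ileal enterocyte markers (Fabp6 and Slc10a2) 1125, 369 and 231.0 CPM against 3175 to 7806 CPM. IKO mice had similarly low sums in part, with 6.12 to 30.3 CPM for fibroblast markers and 305 to 6223 CPM for ileal enterocyte markers, at Oxct1 levels of 111.0 CPM or more. What these markers contribute to the Oxct1 levels was not tested.

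Aacs (ENSMUSG00000029482, chr5:125475814-125517410) encodes acetoacetyl-CoA synthetase, which activates acetoacetate in the cytosol for lipid synthesis. Its level ranged from 11.6 to 50.6 CPM in WT (median 19.5) and from 29.7 to 80.7 CPM in IKO mice (median 42.2). Every IKO mouse was above the WT median. WT 1 and WT 7, at 50.6 and 36.2 CPM, reached into the IKO range, and the other 5 WT mice had at most 22.6 CPM. IKO 5 was highest and IKO 4 lowest among the IKO mice. The means were 24.2 ± 14.3 and 47.9 ± 16.4 CPM (SD, n = 7), a ratio of 1.98 (log2 fold change 0.98, SE 0.32, adjusted p = 0.066). Without WT 1 the log2 fold change was 1.25 and the adjusted p 0.026, within a range of 0.022 to 0.156 over the alternatives. WT 1 and WT 7 also had the lowest sums of the 7 epithelial markers, 21031 and 15946 CPM, of which Fabp2 made up 9009 and 6205 CPM. The markers did not all rank WT 1 low: Epcam, Cdh1 and Krt8 were higher in it than in WT 3. Vil1, Krt20, Alpi and Fabp2 were lower in WT 1 than in WT 3. The part of epithelial content in the Aacs level was not tested.

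Of the transporters, only Slc16a1 was abundant. Slc16a1 (ENSMUSG00000032902, chr3:104638668-104658462) encodes MCT1, the widely expressed carrier that takes lactate, butyrate and ketone bodies across the enterocyte membrane. WT mice had 41.8 to 71.9 CPM with a median of 51.5. IKO mice had 18.3 to 104.8 CPM with a median of 95.9. Of the 7 IKO mice, 5 lay between 94.3 and 104.8 CPM, above every WT mouse, IKO 2 had 64.0 CPM, within the WT range, and IKO 4 had 18.3 CPM, below every WT mouse. The means were 54.9 ± 11.7 and 81.9 ± 31.0 CPM (SD, n = 7), a ratio of 1.49 (log2 fold change 0.58, SE 0.29, adjusted p = 0.184). Without IKO 4 the log2 fold change was 0.76 and the adjusted p 0.019, and without IKO 4 and WT 3 together they were 0.70 and 0.033. Without WT 3, WT 4 and IKO 4 they were 0.67 and 0.064, and the gene was not called. Over the alternatives the adjusted p ran from 0.019 to 0.521.

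IKO 4 was the mouse with the highest mitochondrial share, 50.3%. Epcam, Bsg, Slc16a3, Vil1 and the other epithelial markers were looked at in it after their values were seen. Epcam, an epithelial adhesion molecule, had 504 CPM in IKO 4 and 1093 CPM in IKO 2, against 2822 to 3157 CPM in the other 5 IKO mice and 1450 to 2599 CPM in WT mice. Bsg, which encodes basigin, the partner that brings MCT1 to the cell surface, had 321 CPM in IKO 4, 879 to 1188 CPM in the other IKO mice and 555 to 921 CPM in WT mice. Slc16a3, the gene of the lactate exporter MCT4, had 20.5 CPM there and 71.0 to 171.1 CPM in the other IKO mice, and the WT range of 14.9 to 84.4 CPM holds the value of IKO 4. Vil1, the gene of villin, in contrast was higher in IKO 4 than in any other mouse, at 5419 CPM. Of the other epithelial markers, Cdh1 and Alpi were, like Epcam, lowest in IKO 4, at 249 CPM each. Krt8, Krt20 and Fabp2, at 5225, 3209 and 23637 CPM in IKO 4, lay within the WT range. The sum of the 7 epithelial markers was 38492 CPM in IKO 4, also within the WT range. Whether the composition of this library sets its Slc16a1 level was not tested.

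**Figure D2:**
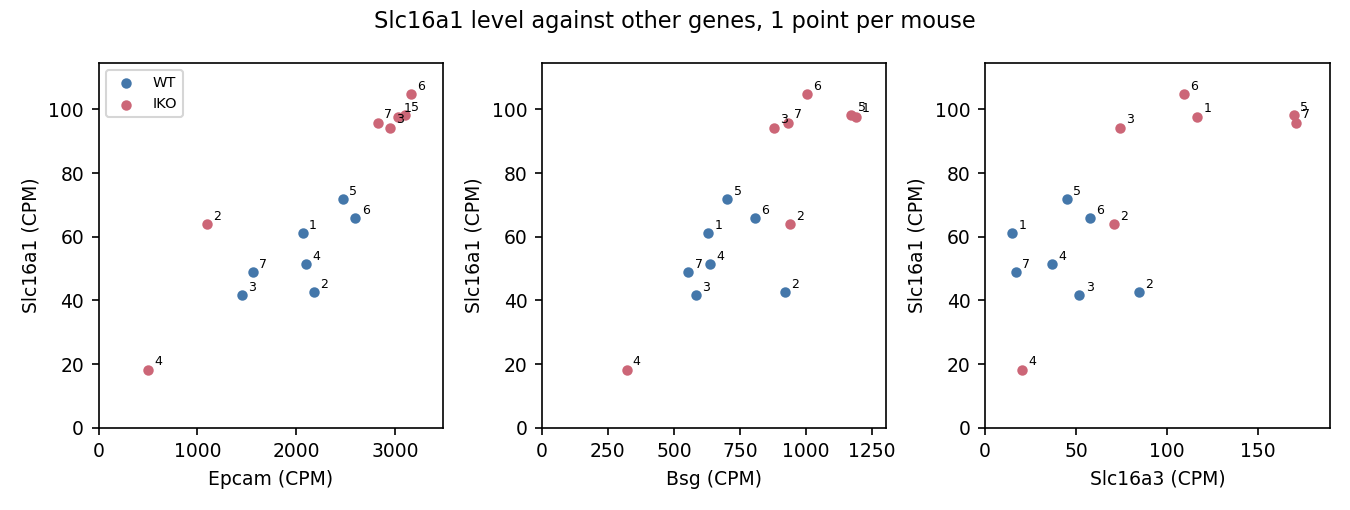
Slc16a1 level against Epcam, Bsg and Slc16a3 (all CPM, linear axes), 1 point per mouse with its number, WT in blue and IKO in red. IKO 4 lies at the bottom left of each panel with 18.3 CPM of Slc16a1, and 5 IKO mice lie above all WT mice. Of the 7 epithelial markers only Epcam is plotted, and not all of them were low in IKO 4.

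Slc16a6 (ENSMUSG00000041920, chr11:109450855-109473598) encodes MCT7, which has been described as an exporter of β-hydroxybutyrate from liver cells. WT mice had 1.71 to 7.66 CPM with a median of 5.62, and IKO mice 1.35 to 3.95 CPM with a median of 2.06. No IKO mouse reached the WT median. WT 4, at 1.71 CPM, and WT 2, at 3.41 CPM, were low among the WT mice, and the other 5 WT mice had 5.53 CPM or more, above every IKO mouse. The means were 5.47 ± 2.21 and 2.50 ± 0.970 CPM (SD, n = 7), a ratio of 0.460 (log2 fold change -1.12, SE 0.34, adjusted p = 0.051). This was the smallest adjusted p of the 8 genes, and it came to 0.042 without WT 2, 0.022 without WT 4 and 0.043 without IKO 6. The alternatives spanned 0.015 to 0.162.

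Reads of Slc16a6 were few, 800 in WT and 294 in IKO mice, and it overlaps Amz2 and Arsg on the opposite strand. The strand setting of the counting is not given in the sources used here, so reads in the shared stretches may not be told apart. The log2 fold change was 0.01 for Amz2 and 0.15 for Arsg. Median sums of some other cell type marker lists were also lower in IKO mice. The 4 leukocyte markers had a median sum of 81.9 CPM in WT (42.2 to 391.6) and 55.8 CPM in IKO mice (39.6 to 88.9), and the 3 stem and cycling cell markers 202.7 CPM (81.9 to 250.7) and 97.9 CPM (36.8 to 149.0). No marker of either list was at 0 in all mice, and the part of these cells in the Slc16a6 level was not tested.

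Slc16a7 (ENSMUSG00000020102, chr10:125219270-125389465) encodes MCT2, a high-affinity carrier known from neurons, liver and kidney. Here it was barely detected, with 221 reads over the 7 WT mice, of which 144 were from WT 4, and 50 over the 7 IKO mice. WT levels were 0.459 to 6.82 CPM (median 0.532) and IKO levels 0.103 to 0.816 CPM (median 0.360). WT 4 alone was high, the other 6 WT mice had at most 0.937 CPM, and 4 of 7 IKO mice were below the lowest WT mouse. The log2 fold change was -1.79 (SE 0.70, adjusted p = 0.104), and without WT 4 it was -0.53 with an adjusted p of 0.460. DESeq2 at its default settings, which can replace an outlying count in groups of 7, gave -0.48. Whether the count of WT 4 was replaced was not examined. Over the alternatives the adjusted p ran from 0.086 to 0.660. WT 4 also had the 10827 CPM of smooth muscle markers, 240.5 CPM of fibroblast markers and 35.8 CPM of neuron and glia markers, each the highest among the 14 mice, and their part in the Slc16a7 level was not tested.

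**Figure D3:**
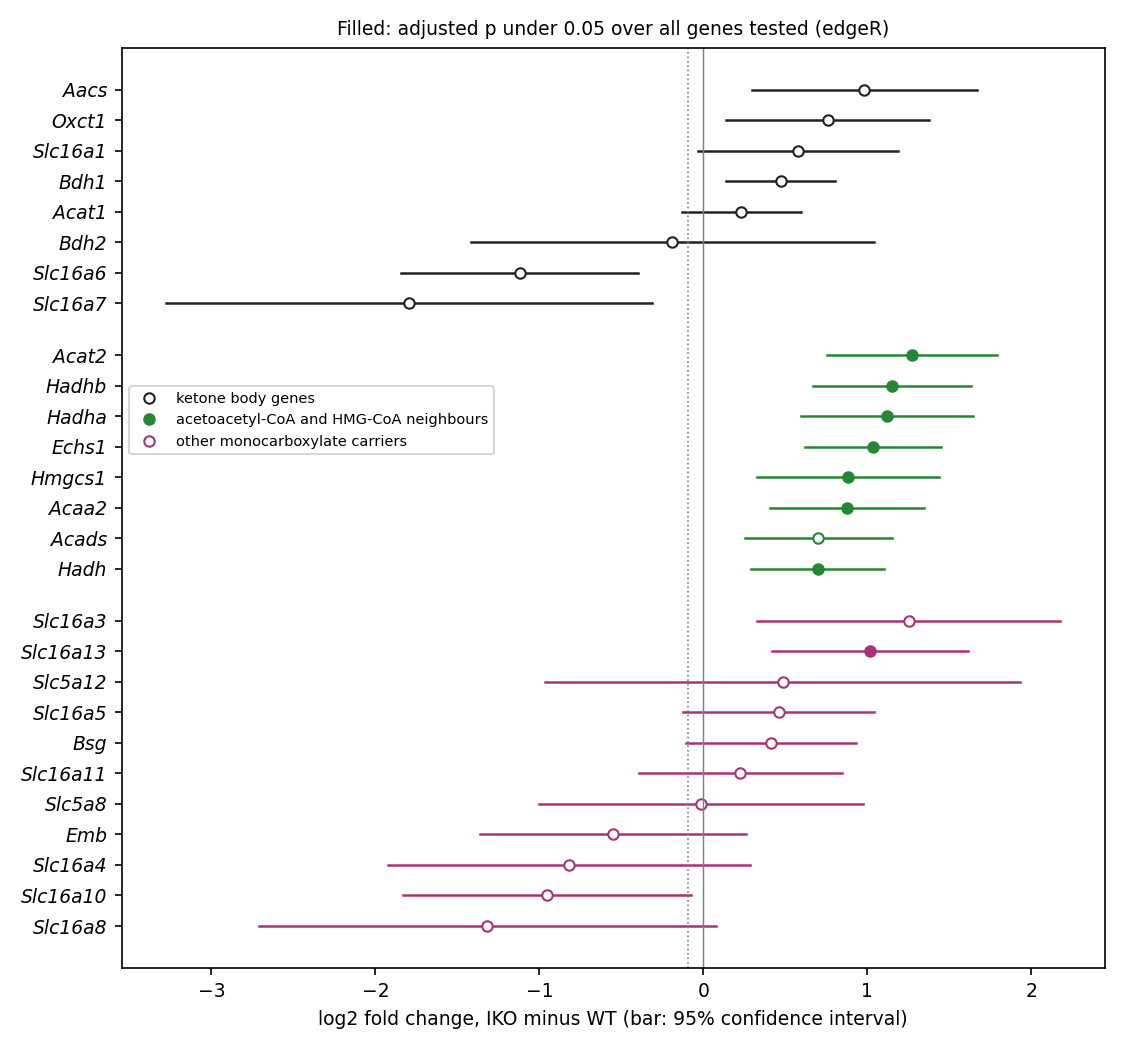
Log2 fold change (IKO minus WT) with its 95% confidence interval from edgeR, for the 8 ketone body genes (black), the tested acetoacetyl-CoA and HMG-CoA neighbours (green) and the tested other monocarboxylate carriers (purple). Filled points had adjusted p-values below 0.05, and the dotted line is the median of all genes (-0.09). None of the black points is filled, against 7 of 8 green and 1 of 11 purple points and 8.67% of all genes tested.

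Per length of gene, measured as FPKM (fragments per kilobase of gene, scaled for depth), the genes stood in the same order of mean level in both genotypes. Oxct1 came first with 21.5 ± 10.4 FPKM in WT and 37.3 ± 6.54 FPKM in IKO mice (SD, n = 7), then Bdh1 with 19.7 ± 3.90 and 28.1 ± 5.18, and Acat1 with 18.4 ± 4.90 and 22.2 ± 2.59. Slc16a1 followed with 12.2 ± 2.70 and 18.6 ± 7.00 FPKM and Aacs with 6.16 ± 3.64 and 12.5 ± 4.38 FPKM. The 3 remaining genes were far lower, Slc16a6 at 1.097 ± 0.441 and 0.515 ± 0.198 FPKM, Bdh2 at 0.363 ± 0.316 and 0.328 ± 0.231 FPKM, and Slc16a7 at 0.125 ± 0.194 and 0.0366 ± 0.0224 FPKM.

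Several neighbours in this order did not differ beyond their spread. Oxct1 exceeded Bdh1 in 4 of 7 WT and 6 of 7 IKO mice, and Bdh1 exceeded Acat1 in 3 of 7 WT and 6 of 7 IKO mice. Acat1 exceeded Slc16a1 in 7 of 7 WT and 4 of 7 IKO mice, and Slc16a1 exceeded Aacs in 7 of 7 WT and 5 of 7 IKO mice. The gap between Aacs and Slc16a6 was the 1 step at which the ranges over mice were apart in both genotypes, with a ratio of mean FPKM of 5.62 in WT and 24.3 in IKO mice. Bdh2 exceeded Slc16a7 in all mice of both genotypes, with separate ranges in IKO mice.

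**Figure D4:**
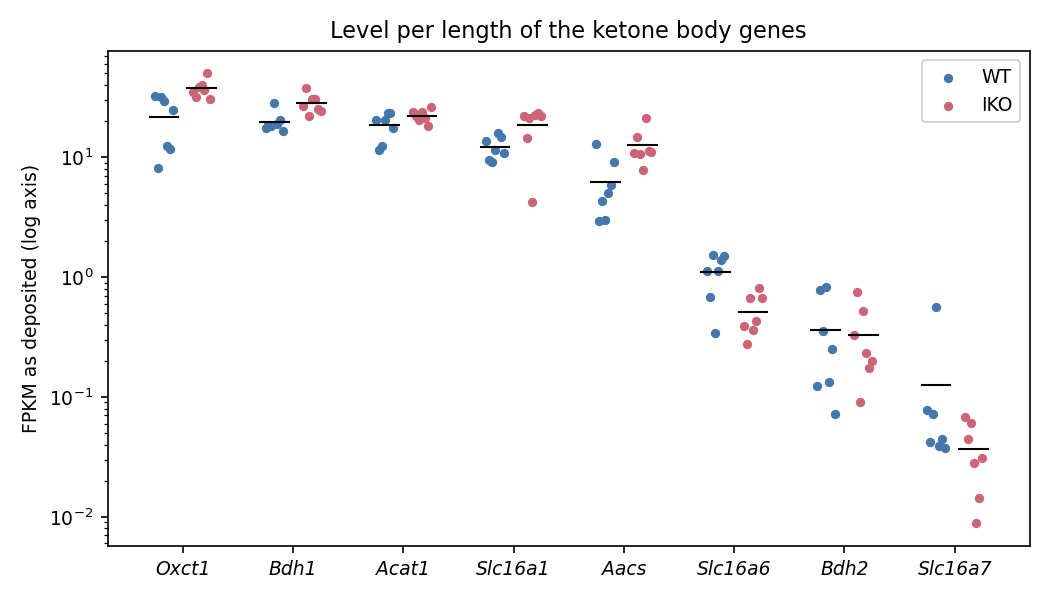
FPKM (log axis) of the 8 genes in each mouse, ordered by mean level, WT in blue and IKO in red, with a black line at the mean of 7 mice. The 5 genes on the left lie above the 3 on the right, with the widest step between Aacs and Slc16a6.

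Genes next to the 8 in metabolism were taken from lists chosen by function. Earlier results of these data were known when the lists were made. The share of a list that was called is therefore a description and not an independent test. Neighbours of acetoacetyl-CoA and HMG-CoA, which either handle these compounds or act next to them in fatty acid oxidation, had a log2 fold change above 0 in 8 of 8 tested, and 7 of these rose by the edgeR test, with a median log2 fold change of 0.96 against -0.09 over all genes (4.38% called higher). Median log2 fold changes of marker lists were 0.38 for 7 epithelial, -1.37 for 4 leukocyte, -1.05 for 3 stem and cycling and -2.13 for 4 fibroblast markers. They were -1.04 for endothelial, -3.10 for smooth muscle, -0.63 for tuft, -0.25 for enteroendocrine and -0.32 for plasma cell markers. For ileal enterocyte, goblet and Paneth markers they were 0.31, 0.20 and -0.19. No marker in these lists was called, and the part of these cell types in the levels of the neighbours was not tested. The other 4 of the 12 listed, Acat3, Hmgcll1, Oxct2a and Oxct2b, had too few reads. Acat2, the cytosolic acetoacetyl-CoA thiolase that feeds cholesterol synthesis, rose from 15.3 ± 6.63 to 37.1 ± 7.31 CPM (SD, n = 7, log2 fold change 1.27, SE 0.25, adjusted p = 0.0084). Its WT values ended at 27.3 CPM, and its IKO values began at 30.0 CPM. Hmgcs1, the cytosolic HMG-CoA synthase of the same pathway, rose from 143.6 ± 57.8 to 264.5 ± 80.2 CPM (log2 fold change 0.88, SE 0.26, adjusted p = 0.049), with overlap, and lost the call in 12 of 14 comparisons with 1 mouse left out (all but those without WT 1 or IKO 4).

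Of the β-oxidation genes on that list, 5 of 6 rose. Hadhb and Hadha, which encode the subunits of the mitochondrial trifunctional protein, rose with log2 fold changes of 1.15 (SE 0.23, adjusted p = 0.0093) and 1.12 (SE 0.25, adjusted p = 0.015), and Echs1, the short-chain enoyl-CoA hydratase, with 1.03 (SE 0.19, adjusted p = 0.0075). None of these 3 overlapped between genotypes. Acaa2, a thiolase, and Hadh, a hydroxyacyl-CoA dehydrogenase, rose with 0.88 (SE 0.22, adjusted p = 0.028) and 0.70 (SE 0.19, adjusted p = 0.038), and Acads, which missed the threshold, had 0.70 (SE 0.21, adjusted p = 0.051). Acat2, Hadhb and Echs1 passed in each of the 26 alternatives, Hadha in 25, Acaa2 in 18, Hadh in 13 and Hmgcs1 in 9. With 1 mouse left out, Acaa2 lost the call without WT 3, WT 7, IKO 1 or IKO 5, and Hadh in 9 of 14 comparisons. The count of the list ranged from 3 to 8. It was 3 without WT 3, WT 4 and IKO 4, and 4 without WT 3, WT 7, IKO 1 or IKO 5 alone.

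Other monocarboxylate carriers had estimates on both sides of 0, with 6 above and 5 below. Of 11 tested out of 15, Slc16a13 alone passed, a share near the 8.67% of all genes tested that passed. The median log2 fold change of the list was 0.23. Slc16a13, whose gene product transports lactate, rose from 5.45 ± 1.052 to 11.0 ± 4.24 CPM (SD, n = 7, log2 fold change 1.02, SE 0.28, adjusted p = 0.040), and IKO 4 was again low at 2.83 CPM, below every WT mouse. It passed in 10 of 26 alternatives and in 3 of 14 with 1 mouse left out (WT 2, WT 6 or IKO 4), and the count of the list ran from 0 to 2. Slc16a3 had a log2 fold change of 1.25 (SE 0.44, adjusted p = 0.076) and Bsg 0.41 (SE 0.25, adjusted p = 0.260). Slc16a10, an aromatic amino acid carrier, had -0.95 (SE 0.41, adjusted p = 0.137). Slc5a8, which takes up monocarboxylates with sodium, differed by -0.02 (SE 0.47, adjusted p = 0.987), and its interval of -1.005 to 0.97 is wide.

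Lists further away had 0 to 2 calls each, all higher in IKO mice, where edgeR called 4.38% of all genes tested higher. For the activation of short-chain acids, 4 of 8 genes were tested and Acss2, the cytosolic acetyl-CoA synthetase, rose from 14.6 ± 4.31 to 23.9 ± 5.16 CPM (SD, n = 7, log2 fold change 0.70, SE 0.20, adjusted p = 0.039), with a list median of 0.12. Acss2 passed in 11 of 26 alternatives and in 4 of 14 with 1 mouse left out (WT 1, WT 6, IKO 4 or IKO 6). For the degradation of leucine, which ends in acetoacetate and acetyl-CoA, edgeR called 0 of 9 tested genes (of 10 listed) and 1 had an unadjusted p under 0.05, Auh, with a log2 fold change of 0.49 (SE 0.15, adjusted p = 0.052). The list's median was 0.11, and over the 26 alternatives its count was 0 or 1. Of 9 tested receptors and regulators (11 listed), 2 were called and the median was -0.04.

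Ppara, the nuclear receptor that drives genes of ketogenesis and fatty acid oxidation, rose from 19.97 ± 10.3 to 58.6 ± 31.2 CPM (SD, n = 7, log2 fold change 1.55, SE 0.40, adjusted p = 0.029), and passed in 19 of 26 alternatives, but not without WT 7, IKO 3 or IKO 4. Acacb, the acetyl-CoA carboxylase that restrains fatty acid entry into mitochondria, rose from 5.47 ± 2.77 to 16.04 ± 5.35 CPM (log2 fold change 1.54, SE 0.34, adjusted p = 0.015) with no overlap, and passed in 25. Mlycd, which removes the malonyl-CoA that Acacb makes, had 0.55 (SE 0.20, adjusted p = 0.085). Hcar2, the gene of the β-hydroxybutyrate receptor, and Fgf21 had too few reads to be tested.

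The likeness of other genes to each of the 8 was measured as Pearson's r of their deviations from the genotype means over 14 mice, among 8193 genes. It is a description, since the same libraries, with their depth and cell content, enter both values. Slc16a1 was most like Saraf (r = 0.98) and Pon2 (r = 0.98), Bdh2 like 1810058I24Rik (r = 0.96) and Nudt3 (r = 0.95), and Slc16a6 like Rfx7 (r = 0.94) and Baz1a (r = 0.93). For Bdh1 the leading genes were Urod (r = 0.93) and Msrb1 (r = 0.92), for Acat1 Hmox2 (r = 0.91) and Decr1 (r = 0.90), and for Aacs Lss (r = 0.90) and Acat2 (r = 0.90). Oxct1 was most like Filip1l (r = 0.89) and Rassf2 (r = 0.89), and Slc16a7 like Ppp1r12b (r = 0.87) and Hspg2 (r = 0.86). By rank the latter pairs were less alike, with Spearman's rho of 0.58 and 0.62, and WT 4 holds most WT reads of Slc16a7. The leading genes of Oxct1 had log2 fold changes of the other sign, -1.68 for Filip1l and -1.57 for Rassf2.

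**Figure D5:**
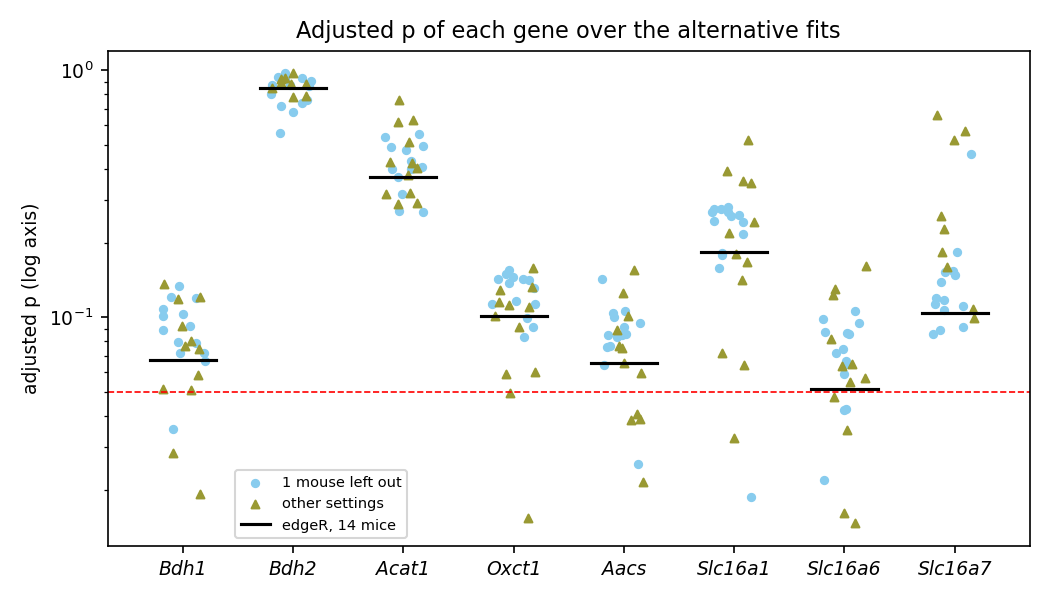
Adjusted p (log axis) of each ketone body gene with 1 mouse left out (light blue circles) and under other settings (olive triangles), with the edgeR value for 14 mice as a black line and 0.05 as a red dashed line. Slc16a6 crosses the red line in 7 alternatives, Aacs in 5, Bdh1 in 3, Oxct1 and Slc16a1 in 2 each, and Acat1, Bdh2 and Slc16a7 in 0.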

How the data were processed

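Ileal RNA of 14 mice, 7 WT and 7 IKO, was analyzed, with genotypes taken from the sample titles and columns named KO read as IKO. Per the labels, libraries were made with a NEBNext Ultra RNA kit. The submitters' processing notes name HISAT2 2.0.5, featureCounts 1.5.0-p3, DESeq2 1.16.1 and the mouse build mm10. Filters and the strand setting are not given in the sources used here. The deposited counts are whole reads per gene without normalization. The authors' deposited FPKM equal counts per gene length divided by DESeq2 size factors times 1 constant, within 1% for 100% of 128041 values tested, and served only to compare levels between genes and for alternatives.

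Counts were filtered with filterByExpr, scaled with TMM and tested with edgeR 4.0.16 (quasi-likelihood, genotype as the only term) in R 4.3.3, with Benjamini-Hochberg adjustment over 13846 genes and a threshold of 0.05. The SE of a log2 fold change was worked back from the test, as its absolute value divided by the square root of F. Confidence intervals are at 95% and were built symmetrically from this SE with a t distribution. The method was tested on simulated counts of 13634 genes, with changes set in for 100 genes at each size of change. It called 43% of the genes changed by an absolute log2 of 1 and 94% of those changed by 2. Of its calls 5.52% were on unchanged genes. These rates were not measured for the ketone body genes themselves. Whether they hold for genes with few reads, or with a mouse that stood apart, was not tested. Alternatives were DESeq2 1.42.0, RLE scaling, other filters, limma 3.58.1 on log2 FPKM (pseudocounts of 1 and 0.1), limma-voom with quality weights, the sample number as a block, removal of mitochondrial genes and samples left out. For the lists and their genes, all alternatives were added after the data were seen.

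The 8 genes, the lists and the tests were chosen with earlier results of these data known. Genes named are the 8, the genes of the lists, Ncor1 and, for each of the 8, the 2 genes most like it (mean log2 level of at least 3, prior count 2). Epcam, Vil1 and the other cell type markers named come from the marker lists. Results for some genes of the pathway are not reported here. All 8 genes have the same coordinates in a GENCODE annotation of GRCm38. No samples had identical counts. Titles give separate mice, so p-values reflect the spread between mice.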

Additional observations from a re-analysis of the deposited data

Results flagged for a closer look

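The level of each of the 8 genes was examined for a mouse that stood apart within its genotype, by the gap to the nearest mouse as a share of the group's range (Dixon's ratio on the log2 scale, set against its 95% critical value for 7 samples). Of 16 groups 3 passed, where chance flags about 1 in 20. Bdh1 was highest in WT 4, with a ratio of 0.638 (111.8 CPM). Slc16a7 was highest in WT 4 as well, with a ratio of 0.756 (6.82 CPM). Slc16a1 was lowest in IKO 4, with a ratio of 0.717 (18.3 CPM).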

How the results depend on the processing

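Of 26 alternatives, 14 called none of the 8 genes and 12 called between 1 and 4. DESeq2 and limma-voom each called 4 (3 higher, 1 lower), with 2484 and 1889 calls over all genes. Slc16a6 was the 1 gene called, lower, with at least 10 counts in every sample and with mitochondrial genes removed. Aacs was the 1 gene called, higher, with limma on log2(FPKM + 1) and log2(FPKM + 0.1). Slc16a1 was the 1 gene called, higher, without IKO 4 and WT 3 together, when 648 genes were called in all. Calls over all genes were 508 without a low-count filter and 614 with limma on unfiltered FPKM. Without WT 3, WT 4 and IKO 4 together, an alternative added after the data were seen, there were 433 calls, 0 of the 8 genes and 3 neighbours. The cause of these differences was not tested.

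With 1 mouse left out, 0 to 2 of the 8 genes were called (0 to 1 higher and 0 to 1 lower), 4 to 7 neighbours, and 515 (without IKO 5) to 1371 (without WT 2) genes in all. The total moved by over 1.5 times without WT 4 (746), WT 7 (600), IKO 1 (526), IKO 2 (728), IKO 5 or IKO 7 (789). The log2 fold change of Bdh2, -0.19 in the full comparison, turned to 0.20 with limma-voom, 0.030 with the replicate block, 0.12 without WT 2, 0.17 without WT 4 and 0.12 without WT 3, WT 4 and IKO 4. With 1 mouse left out it ran from -0.55 to 0.17. The other 7 genes kept their direction.

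With the sample number as a replicate block, 362 genes, 0 of the 8 and 4 neighbours were called. No pairing by number was visible in expression: deviations of same-numbered mice correlated at -0.31 to 0.23, with 1 of 7 over 0.1 and 1 of 7 best with its own number. The titles state no pairing, and these values do not show that the mice were unpaired. Low counts limit Bdh2, Slc16a6 and Slc16a7.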
